A study of Drosophila melanogaster and Drosophila pseudoobscura and Drosophila virilis with 4 samples.

Results

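The regions described here are 721 of the 19424 open chromatin peaks in a FAIRE-Seq data set of *Drosophila* eye-antennal imaginal discs, namely those that stood at least 2-fold higher in *D. melanogaster* than in both *D. pseudoobscura* and *D. virilis*. In FAIRE-Seq the DNA that is free of nucleosomes is separated from cross-linked chromatin and sequenced, and more reads in a region stand for more open chromatin. The discs came from wandering larvae of the third instar, raised at 25 °C. There were 4 libraries: *D. melanogaster* Canton-S (genotype Canton S), *D. melanogaster* FRT82 (genotype P{neoFRT}82B), *D. pseudoobscura* (genotype Dpse\wild-type) and *D. virilis* (genotype Dvir\wild-type). Each strain or species had 1 library, of whole discs, and the sexes of the larvae are not given in the labels or the methods. The spread between the 2 *D. melanogaster* strains was therefore the only spread within a species, and the other 2 species had none. It holds differences of genotype and of technique together and is not an error between true replicates.

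The peaks were chosen on the deposited RPKM (reads scaled by peak length and depth, then normalized between libraries by the authors), on a log2 scale without a pseudocount. The margin of a peak is the log2 of the lower *D. melanogaster* strain over the higher of the other 2 species. A peak belonged to the set when its margin was at least 1 and was the largest of 6 such margins, 1 for a gain and 1 for a loss in each species. Since these values made the choice, the difference between *D. melanogaster* and the other species is given below as a description, with no test. The 721 peaks were 3.71% of the table. Both strains stood above both other species at 4403 peaks, 22.7% of the table, most of them by less than 2-fold. A further 59 peaks had a margin of at least 1 but a larger one in another class: 41 were *D. virilis* losses and 18 were *D. pseudoobscura* losses. The mirror image, a loss in *D. melanogaster* by the same rule, held for 442 peaks. Without 1 of the strains there were 1126 to 1281 gains and 886 to 907 losses, and with TMM factors on the counts 644 gains and 313 losses.

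The eye-antennal disc is the larval epithelium that gives rise to the compound eye, the antenna and the head capsule. Most of its open regions are promoters and enhancers, where transcription factors keep nucleosomes away. Open chromatin can change between species when the factor binding sites in a regulatory sequence are gained or lost. No genome or annotation of FlyBase release 5, the build of the peak positions, was used here. Gene names therefore come only from the windows printed in the paper for *so*, *pdm3*, *how*, *fred*, *Dscam* and *scrt*, and no peak sequences are shown.

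These windows held 23 peaks, of which 3 belonged to the set: both peaks of *pdm3* and the single peak of *fred*. The share over the whole table was 3.71%. Both genes were shown in the paper as examples of regions more open in *D. melanogaster*, so their place in the set follows from how the windows were picked. *pdm3* encodes a POU-domain transcription factor with roles in the wiring of olfactory neurons in *Drosophila*. Its first peak, on 2R from 4281825 to 4282158, had 49.5 RPKM for Canton-S and 61.8 RPKM for FRT82, but 6.82 RPKM for *D. pseudoobscura* and 8.39 RPKM for *D. virilis*. Its second peak, on 2R from 4282213 to 4282442, had 40.7 RPKM (Canton-S) and 25.6 RPKM (FRT82), compared with 6.68 RPKM (*D. pseudoobscura*) and 6.67 RPKM (*D. virilis*). At both peaks the strains lay above both other species, but they differed from each other in opposite directions, with FRT82 higher at the first peak and lower at the second. The margins were 2.56 and 1.94, the 16th and the 73rd of the 721.

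The *fred* (friend of echinoid) gene encodes an immunoglobulin-domain cell adhesion protein. The window printed for it and the ruler drawn with it do not match, so the name of its peak rests on the printed window. Its peak, on 2L from 3933766 to 3933989, had 45.4 RPKM for Canton-S and 62.7 RPKM for FRT82, but 6.38 RPKM for *D. pseudoobscura* and 3.44 RPKM for *D. virilis*. These heights rested on 131, 74, 18 and 7 reads in the same order. For the 7 reads of *D. virilis* the exact Poisson 95% interval ran from 2.81 to 14.4 reads, which covers counting error only. The margin was 2.83, the 4th largest of the set, with a counting interval (95%, from the reads of the 2 libraries that define it) of 2.12 to 3.54.

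The other windows held no peak of the set. At *so* (sine oculis), a retinal determination gene that is needed for eye formation, all 10 peaks had a negative margin, from -2.67 to -0.18. A negative margin means only that the lower strain was below the higher other species. Of all peaks, 22.7% had a margin above 0. At *how*, which encodes an RNA-binding protein, the strains stood above both species at 2 of 9 peaks, with a largest margin of 0.68. The peak at *Dscam*, which encodes a neuronal immunoglobulin receptor, had a margin of 0.52 and was a *D. virilis* loss, with 44.2 RPKM (Canton-S) and 70.2 RPKM (FRT82), compared with 30.8 RPKM (*D. pseudoobscura*) and 5.45 RPKM (*D. virilis*). No peak of the table lay in the *scrt* window.

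Over the whole set the peaks were mostly above the median height of all peaks in *D. melanogaster* and low in the other species. The median was 36.6 RPKM in Canton-S (lowest 14.9, highest 157.9) and 40.4 RPKM in FRT82 (lowest 14.7, highest 167.6). For *D. pseudoobscura* it was 11.9 RPKM (lowest 3.25, highest 64.8) and for *D. virilis* 10.9 RPKM (lowest 2.54, highest 58.8). The medians over all 19424 peaks were 28.4, 28.7, 28.1 and 26.8 RPKM in the same order of libraries. Among the highest 1000 peaks of each library, the set supplied 46 in Canton-S (6.38% of the set) and 51 in FRT82 (7.07%). Of all peaks 5.15% were among them, so these shares were close to that of the table. In the other 2 libraries the set supplied 0, where the rule itself asked for values below those of the strains. The lowest 25% of the *D. pseudoobscura* library took in 572 of the 721 peaks (79.3%), and the lowest 25% of the *D. virilis* library 582 (80.7%). The discs are a mixture of cell types, and a region open in fewer cells cannot be told apart from one less open in every cell.

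**Figure D1:**
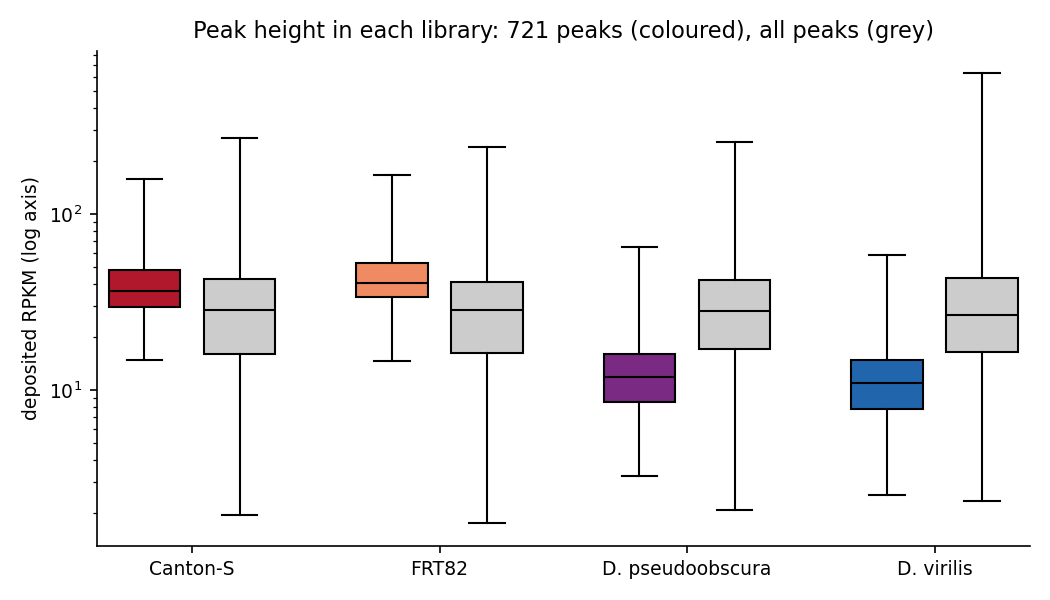
Deposited RPKM (log axis) of the 721 peaks (coloured) and of all 19424 peaks (grey) in each library; boxes span the quartiles, lines mark the median and whiskers reach the lowest and highest peak. In both *D. melanogaster* strains the set lies above the table, with medians of 36.6 and 40.4 RPKM, and in the other species it lies below, with medians of 11.9 and 10.9 RPKM.

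The set took 3.30% of the reads in peaks of Canton-S and 3.68% of those of FRT82, but 1.01% of those of *D. pseudoobscura* and 1.07% of those of *D. virilis*. The reads in peaks summed to between 1386805 (FRT82) and 4733792 (*D. pseudoobscura*) per library. For the median peak of the set this meant 124 reads (Canton-S) and 57 reads (FRT82), compared with 46 reads (*D. pseudoobscura*) and 33 reads (*D. virilis*). In the strains every peak of the set held at least 18 reads, although 4.10% of all peaks held fewer than 10 in FRT82. Fewer than 10 reads were held by 6 peaks of the set in *D. pseudoobscura* (0.83%, against 0.32% of all peaks). In *D. virilis* 27 did so (3.74%, against 0.80%). The rule asked for high values in the strains and lower ones in the other species, so this contrast follows in part from the choice. The counting interval of the margin lay above 0 at all 721 peaks. It lay wholly at or above 1 at 235 of them (32.6%), so for most of the set the reads do not fix on which side of 2-fold the margin lies. Since the rule selected on the same reads, these intervals describe precision only.

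Margins were mostly close to the threshold. Their median was 1.32, that is 2.49-fold, and their upper quartile 1.60. A margin of 2 (4-fold) was reached by 60 peaks and one of 3 (8-fold) by 3 peaks. The 3 peaks just inside the threshold had margins of 1.0001 to 1.0032, and the 3 just outside had margins of 0.9996 to 0.9998. The innermost, on 3L from 8844711 to 8845290, had 37.9 RPKM for Canton-S and 29.3 RPKM for FRT82, but 14.6 RPKM for *D. pseudoobscura* and 11.3 RPKM for *D. virilis*. The nearest excluded peak, on 3R from 20899849 to 20900074, was at 31.3 RPKM (Canton-S) and 27.9 RPKM (FRT82), with 14.0 RPKM for *D. pseudoobscura* and 12.9 RPKM for *D. virilis*. The 180 peaks with the widest margins had a median height in the strains of 39.4 RPKM (Canton-S) and 41.8 RPKM (FRT82). In the 181 peaks with the narrowest margins these medians were 35.3 and 38.5 RPKM. The other species differed more between these groups of peaks, with medians of 8.58 RPKM (*D. pseudoobscura*) and 7.52 RPKM (*D. virilis*) at the widest margins and of 14.6 and 13.5 RPKM at the narrowest. The groups were cut by the margin, which is made from these same values, so these differences are a description only. The other species also had fewer reads at the widest margins, with medians of 30 (*D. pseudoobscura*) and 21 (*D. virilis*), against 59 and 44 at the narrowest.

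The widest margin, 3.20, belonged to a peak on 3L from 14596402 to 14596610. It had 88.7 RPKM (Canton-S) and 71.2 RPKM (FRT82), compared with 3.32 RPKM (*D. pseudoobscura*) and 7.75 RPKM (*D. virilis*). The 216 and 78 reads of the strains stood against 7 and 18 reads in these species. It was 1 of a run of 3 peaks of the set within 8895 bp, with no other peak of the table between them. The second, on 3L from 4405628 to 4405812, was lower in every library, with 33.9 RPKM for Canton-S and 27.9 RPKM for FRT82, but 3.25 RPKM for *D. pseudoobscura* and 2.60 RPKM for *D. virilis*. Only 6 and 4 reads were behind the last 2 values. The third, on 3R from 15741515 to 15741683, had 55.6 RPKM (Canton-S) and 72.7 RPKM (FRT82), compared with 5.90 RPKM (*D. pseudoobscura*) and 6.77 RPKM (*D. virilis*), from 12 reads each.

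**Figure D2:**
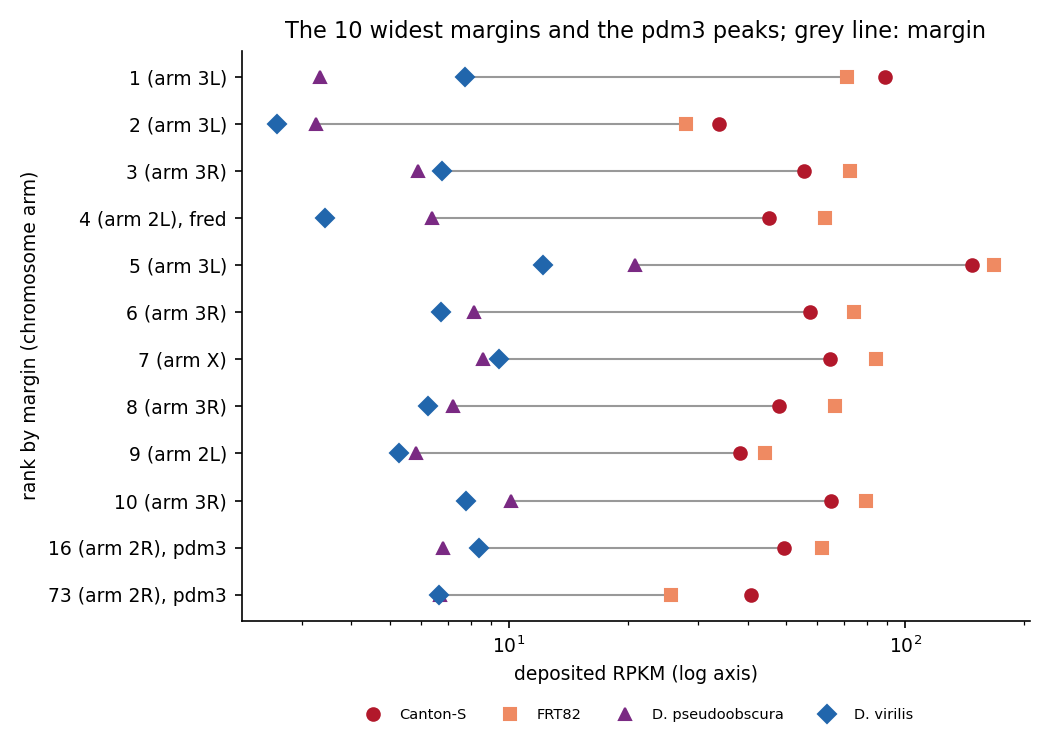
Deposited RPKM (log axis) in the 4 libraries at the 10 peaks of widest margin, numbered by rank with their chromosome arm, and at both *pdm3* peaks; the grey line spans the margin, from the higher other species to the lower strain. The strains lie at or above 25.6 RPKM and the other species at or below 20.8 RPKM in all 12 peaks.

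The highest peak of the set in *D. melanogaster*, on 3L from 3394481 to 3394635, ranked 5th by margin. The strains averaged 157.7 ± 14.0 RPKM (SD, n = 2), while *D. pseudoobscura* was at 20.8 RPKM and *D. virilis* at 12.2 RPKM. The next highest lay on chromosome 4 from 509686 to 509944, with 157.9 RPKM for Canton-S and 126.8 RPKM for FRT82, but 20.5 RPKM for *D. pseudoobscura* and 16.0 RPKM for *D. virilis*. The widest margin on X, 2.78, was at the peak from 2006652 to 2006860, where the strains averaged 74.6 ± 14.0 RPKM (SD, n = 2), *D. pseudoobscura* 8.58 RPKM and *D. virilis* 9.44 RPKM. On 2R it was 2.60, at the peak from 482768 to 482986, where the strains had almost equal heights of 84.4 and 84.2 RPKM and the other species 13.9 and 5.68 RPKM. The remaining peaks of the 10 widest margins lay on 3R (from 21155121 to 21155291, 15436340 to 15436514 and 5077425 to 5077699) and on 2L (from 21296444 to 21296786), with margins from 2.68 to 2.82. In all 10, both strains were at least 6.42 times as high as either other species.

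The strains, of different genotype, stood in for replicates of *D. melanogaster*, and the rule required both of them to be high. The spread between them is therefore given as a description of the chosen peaks and not as a check of the choice. The median SD between the strains was 0.19 log2 units in the set and 0.27 over all peaks, where peaks low in 1 strain are included. At 7 peaks of the set the gap between the strains was wider than the margin, and all 7 had FRT82 above Canton-S. Of the peaks that stood at least 2-fold above both species, 1203 (6.19% of the table) did so in Canton-S and 1389 (7.15%) in FRT82, with 780 in common. Both counts were set against the same *D. pseudoobscura* and *D. virilis* libraries, so the number in common is not an independent check.

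FRT82 was higher than Canton-S at 462 of the 721 peaks (64.1%), where the share over all peaks was 50.7%. The median log2 ratio of FRT82 to Canton-S was 0.15 in the set and 0.01 over all peaks. FRT82 was at least 2-fold above Canton-S at 23 peaks of the set (3.19%), against 4.94% of all peaks. Canton-S was at least 2-fold above FRT82 at 0 peaks of the set, against 4.8% of all peaks. The rule used the lower strain, whichever that was. The reads in peaks were unequal, with 1386805 in FRT82 and 3407230 in Canton-S, and whether the rule favours 1 strain at such depths was not tested. With 1 library a strain these ratios have no replicate check. The largest excess of FRT82 was at a peak on 3R from 22298177 to 22298604, with 16.5 RPKM (Canton-S) and 54.0 RPKM (FRT82), compared with 8.14 RPKM (*D. pseudoobscura*) and 6.11 RPKM (*D. virilis*). The largest excess of Canton-S, 0.92 log2 units, was on 3L from 15063301 to 15063516, where FRT82 had 14.7 RPKM from 18 reads, the fewest of the set in that library. Both were chosen after their values were seen.

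The other 2 species were mostly low together. *D. pseudoobscura* stood above *D. virilis* at 442 peaks of the set (61.3%), where the share over all peaks was 51.2%, and the median log2 ratio was 0.14 in the set and 0.03 over all peaks. *D. pseudoobscura* was at least 2-fold above *D. virilis* at 49 peaks (6.80%), against 20.5% of all peaks. *D. virilis* was at least 2-fold above *D. pseudoobscura* at 10 peaks (1.39%), against 18.5% of all peaks. These differences have no replicate check. A peak at which 1 of the species is far below the other can have its largest margin as a loss in that species, and the rule then leaves it out, so the narrower range is in part set by the rule. The widest ratio towards *D. pseudoobscura* was on X from 2939713 to 2939926, with 38.3 RPKM for Canton-S and 42.6 RPKM for FRT82, but 11.2 RPKM for *D. pseudoobscura* and 3.53 RPKM for *D. virilis*. The widest towards *D. virilis* was on 2L from 11014090 to 11014259, with 31.0 RPKM (Canton-S) and 25.7 RPKM (FRT82), compared with 3.48 RPKM (*D. pseudoobscura*) and 9.13 RPKM (*D. virilis*). The lowest value rested on 7 reads at the first of these peaks and on 6 reads at the second.

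**Figure D3:**
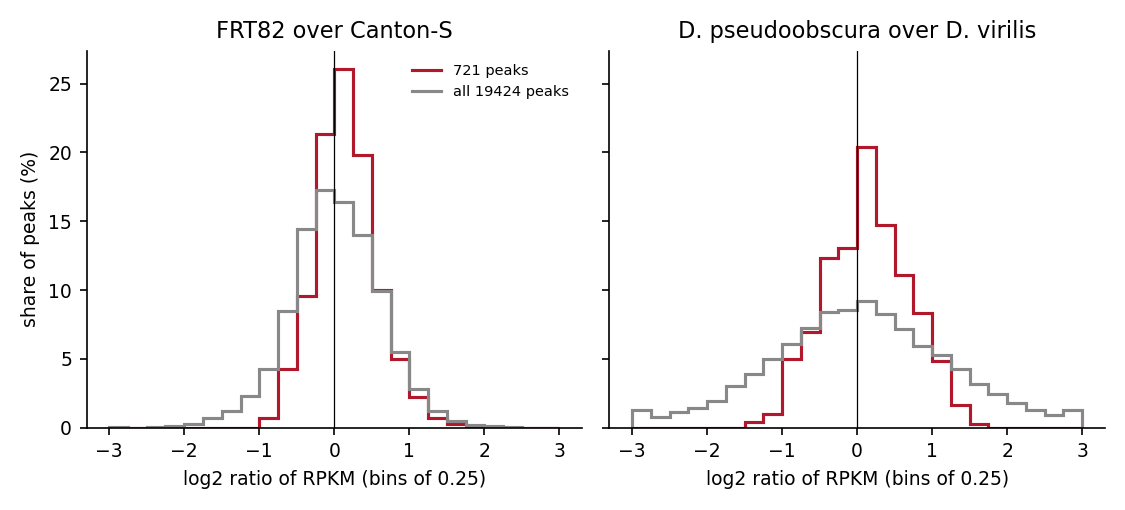
Share of peaks (%) by log2 ratio of FRT82 to Canton-S (left) and of *D. pseudoobscura* to *D. virilis* (right), in bins of 0.25, for the 721 peaks (red) and all 19424 peaks (grey); ratios beyond 3 in size are counted in the outermost bins. The set is narrower than the table in both panels and leans to the right, with medians of 0.15 and 0.14.

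The share of peaks that belonged to the set differed between chromosomes, for which no test was made. Arm 3L held 204 of the 721 peaks (28.3%) but 22.8% of all peaks, so that 4.60% of its peaks belonged to the set, against 3.45% of the peaks elsewhere. The shares were 3.66% on 2L, 3.08% on 2R, 3.17% on 3R and 3.84% on X. Chromosome 4, the small and largely heterochromatic chromosome of *Drosophila*, had 16 of its 193 peaks in the set (8.29%). Without FRT82 the rule took 26 of them (13.5%), against 5.80% of all peaks, and without Canton-S it took 18 (9.33%), against 6.59%. With log2(RPKM + 5) it took 8 (4.15%, against 2.28% of all peaks), and at 3-fold 3 (1.55%, against 0.96%). The heterochromatic and unplaced scaffolds added 4 of 63 peaks, 3 of them on 2RHet and 1 on U.

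The arm that corresponds to 3L is part of a sex chromosome in *D. pseudoobscura* but an autosome in the other 2 species. Over all 3L peaks the median log2 ratio of *D. pseudoobscura* to the mean of the strains was -0.21, against 0.04 elsewhere. The same ratio of *D. virilis* was -0.07 on 3L and -0.0028 elsewhere. On chromosome 4 these medians were -0.43 for *D. pseudoobscura* and -0.12 for *D. virilis*. Among the *D. pseudoobscura* losses 225 of 701 were on 3L (32.1%), and among the *D. melanogaster* losses 63 of 442 (14.3%). When the values of each chromosome were centred on its median in each library, 159 peaks of 3L met the rule (3.59% of its peaks, against 3.80% elsewhere), 108 of X (4.72%) and 5 of chromosome 4 (2.59%). The higher shares of 3L and chromosome 4 were therefore not seen after centring. Chromosome copy number in the dissected larvae and chromatin openness cannot be told apart by these libraries.

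**Figure D4:**
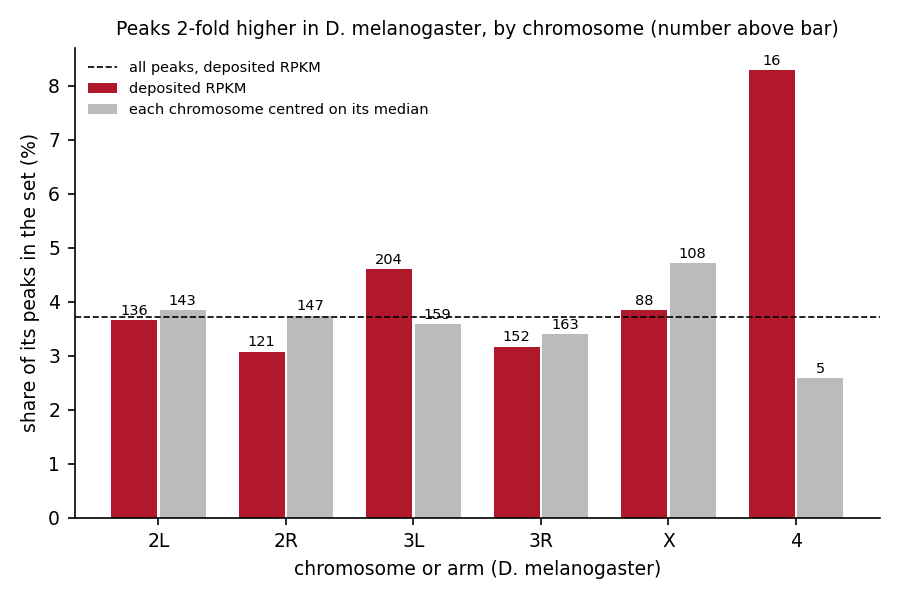
Share (%) of the peaks of each chromosome or arm that met the rule on the deposited RPKM (red) and after each chromosome was centred on its median in every library (grey), with the number of peaks above each bar; the dashed line is the share over the whole table, 3.71%. The red bars of 3L (4.60%) and chromosome 4 (8.29%) lie above the line and their grey bars (3.59% and 2.59%) below it.

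The median margin of the peaks on 3L was 1.34, against 1.30 on the other chromosomes, and the median log2 ratio of *D. pseudoobscura* to *D. virilis* was 0.12, against 0.15. On chromosome 4 the 16 peaks had a lower median margin, 1.18, and the strains leaned to Canton-S there, with a median log2 ratio of FRT82 to Canton-S of -0.29.

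A peak of the set had another one nearby more often than a peak of the whole table did. Another peak of the set was centred within 10 kb of 151 peaks of the set (20.9%), and 15.2% of all peaks had one that near. Within 2 kb the shares were 12.8% (92 peaks) and 3.80%, and within 20 kb 29.8% and 26.9%. The difference was thus at short range. Whether adjacent peaks were parts of 1 open region was not tested. At 66 places in the genome 2 consecutive peaks of the table both belonged to the set. The median gap between their edges was 624 bp, against 1601 bp between all consecutive peaks, and it was under 200 bp at 14 of the 66 places, against 2822 of 19411 places (14.5%) over all consecutive peaks.

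**Figure D5:**
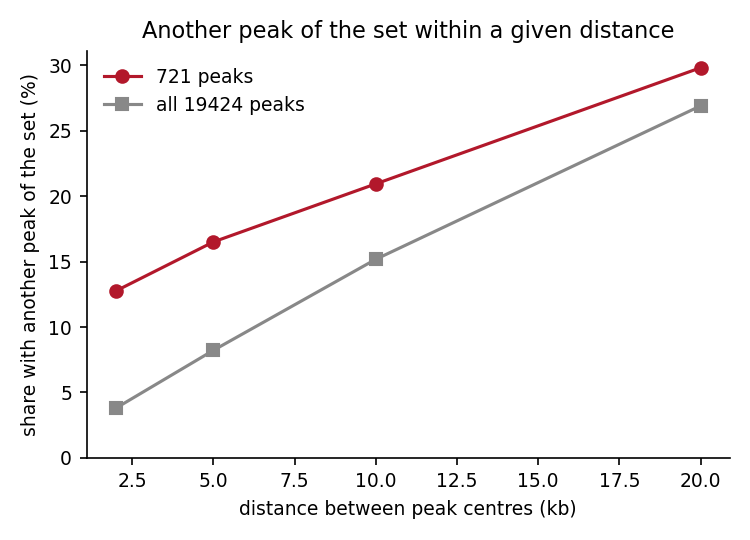
Share of peaks (%) that have another peak of the set centred within 2, 5, 10 or 20 kb, for the 721 peaks (red) and for all 19424 peaks (grey). The lines are farthest apart at 2 kb (12.8% against 3.80%) and nearest at 20 kb (29.8% against 26.9%).

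Joined in steps of at most 10 kb, the set formed 570 single peaks, 59 runs of 2, 7 of 3 and 3 of 4. The runs of 4 were on 2L from 12024414 to 12028294, on 3L from 2043524 to 2049824 and on 2L from 15385026 to 15397775. In the run on 3L the 4 peaks of the set were the only peaks of the table, with heights of 20.1 to 29.2 RPKM for Canton-S and 32.5 to 35.4 RPKM for FRT82, but 4.52 to 6.50 RPKM for *D. pseudoobscura* and 4.63 to 7.15 RPKM for *D. virilis*. FRT82 was above Canton-S at each of the 4. In the first run on 2L, also made up of 4 peaks of the set alone, heights were 26.4 to 46.4 RPKM (Canton-S) and 22.9 to 61.1 RPKM (FRT82), compared with 7.75 to 17.0 RPKM (*D. pseudoobscura*) and 8.51 to 22.4 RPKM (*D. virilis*). Its margins were narrow, from 1.02 to 1.24. The second run on 2L spanned 8 peaks, of which 4 belonged to the set and 7 stood higher in both strains than in both species. Of the 10 runs of 3 or more, 6 were on 3L, which held 22.8% of all peaks and 28.3% of the set. The runs were not formed again after centring of each chromosome. The highest peak of chromosome 4 named above began a run of 3 peaks within 2145 bp.

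Peaks outside the set had not met the rule, so their smaller difference than in the set follows from the choice. Those near the set were therefore compared with those farther away. Of the 1477 peaks outside the set but within 5 kb of a peak in it, 407 (27.6%) stood higher in both strains than in both species, against 19.0% of the 17226 peaks farther away. They stood lower in both strains at 257 (17.4%), against 21.6%. The median log2 difference between the mean of the strains and that of the other species was 0.07 in the neighbours and -0.05 farther away, where it was 1.75 in the set. No other peak of the table was centred within 5 kb of 136 peaks of the set (18.9%), and this held for 10.2% of all peaks.

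The peaks of the set were shorter than those of the table. Their median length was 247 bp (lowest 151, highest 1324) and that of all peaks 289 bp (lowest 151, highest 3029). At least 500 bp were reached by 54 peaks of the set (7.49%), where 19.8% of all peaks did. The other classes chosen by the same kind of rule had medians below 289 bp too, with values of 260 bp in the *D. melanogaster* losses, 231 bp in the *D. pseudoobscura* gains and 242 bp in the *D. virilis* gains. The longest peak of the set, on 2R from 16490210 to 16491534, had 40.4 RPKM for Canton-S and 41.5 RPKM for FRT82, but 19.6 RPKM for *D. pseudoobscura* and 16.5 RPKM for *D. virilis*. Its 695, 296, 454 and 287 reads made it one of the best measured of the set, and its margin of 1.05 had a counting interval of 0.88 to 1.22.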

How the data were processed

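Chromatin of dissected eye-antennal discs was fixed in formaldehyde, and FAIRE-Seq was performed by the authors. They left out reads that held adapter, mapped each species to its own FlyBase genome (release 5 for *D. melanogaster*, 2 for *D. pseudoobscura*, 1 for *D. virilis*) with Bowtie2 (version not given in the sources used here), and carried the mapped reads over to the *D. melanogaster* genome by liftOver with minMatch 0.1. Peaks were called by F-Seq with a length of 200 and their reads counted by HTSeq. Peaks without reads in any 1 species were dropped by the authors. The paper also describes the 19424 peaks as filtered at 1 RPKM in 3 species and by a minimum length, and the shortest was 151 bp. Regions that failed these filters are absent, so the set need not hold every gain in *D. melanogaster*. The deposited counts are these unscaled reads in each peak. The deposited RPKM were made by the authors from them, with a within-library and a between-library normalization whose tool is not given in the sources used here. Reads that cannot be carried over are missing from the other species only, and their part in the results was not tested. Both kinds of values were taken as deposited, with 0 sample columns unused, and peak length was end minus start, which the RPKM follow.

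The 2 *D. melanogaster* libraries formed 1 group. Margins, shares, distances between peak centres and exact Poisson intervals were computed in Python 3.11.15, and TMM factors with edgeR 4.0.16. The rule and the distance functions were tested on simulated data. No p-values were computed, since the compared values chose the peaks and the other species had 1 library each. Peaks named are those in the windows of the paper, the 10 widest margins, the widest margin of the main chromosomes, the highest, the longest, the extremes of each ratio, 1 or more at the threshold and the runs of most peaks, with the extremes of FRT82 to Canton-S added later. All 6 gene symbols matched the RefSeq gene table (release 6), from which no coordinates were taken. The peaks, the rule and the gene windows were chosen with earlier results of these data known. Alternatives were other scales, pseudocounts, a count minimum, centring, thresholds, distances and leaving out each strain.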

Additional observations from a re-analysis of the deposited data

How the results depend on the processing

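The set kept its size, between 630 and 762 peaks, under 6 alternatives: RPKM from the counts with TMM or median-of-ratios factors, quantile normalization, log2(RPKM + 1), at least 10 reads in every library, and centring of each chromosome. With TMM factors 575 of 644 peaks were shared with the 721. The number moved with the definition, to 442 with log2(RPKM + 5), 1415 at 1.5-fold, 186 at 3-fold and 60 at 4-fold. It was 2080 when the means of the 2 groups differed by 2-fold and both strains stood above both species, whatever the other margins. Leaving out 1 strain gave 1126 to 1281 peaks. The share on 3L was 21.8% after centring and 24.7% at 3-fold, and from 27.4% to 28.8% in the other 11 alternatives. The share with another peak of the set within 10 kb depends on how many peaks there are. It was 16.5% with log2(RPKM + 5), 35.7% at 1.5-fold, 13.4% at 3-fold, 10.0% at 4-fold, 46.2% with the difference of means and 30.4% to 34.0% without 1 strain. With distances of 5 kb and 20 kb in the set of 721 it was 16.5% and 29.8%, against 8.22% and 26.9% of all peaks. For the other alternatives the share over all peaks was not computed, so whether the difference from the table held there was not tested. The median ratios of FRT82 to Canton-S (0.11 to 0.25) and of *D. pseudoobscura* to *D. virilis* (0.04 to 0.25) stayed positive in every alternative that gave them. The medians over all peaks were not computed there, so whether the set still leaned away from the table was not tested. With at least 10 reads in every library 691 peaks remained. The peaks ranked 1st, 2nd and 4th by margin were among those that left the set, the 4th being the *fred* peak. The 1st and the 4th had 7 reads each in 1 species, and the 2nd had 6 and 4 reads in the other species. In the other alternatives the margin of the *fred* peak ran from 2.15 to 3.30 and those of the *pdm3* peaks from 2.03 to 2.88 and from 1.39 to 2.61. No paired analysis was possible, since each strain or species had 1 library and the labels pair none of them. FRT82, with the fewest reads, and the low reads of the other species limit the precision.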
